A study of Homo sapiens with 6 samples.

Results

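The mitochondrial genome encodes 4 subunits of respiratory complexes III and IV, and all 4 of their mRNAs were in the deposited table of 1877 genes. They were picked by gene name, with earlier results of these data known. They are MT-CYB, cytochrome b of complex III, and MT-CO1, MT-CO2 and MT-CO3, subunits I, II and III of cytochrome c oxidase (complex IV). They were measured in LP-1, an established human multiple myeloma line that the labels give as tumor cells from blood. RNA was sequenced from 3 libraries of cells in which a short hairpin RNA depleted RNF5, an E3 ubiquitin ligase anchored in the membrane of the endoplasmic reticulum, and from 3 libraries of the same line that received a non-target control. All cells grew in RPMI-1640 with 15% serum, and the study's title links RNF5 to mitochondrial function. The labels do not say how many hairpins were used, when cells were harvested or whether each library came from its own culture. The p-values therefore set differences between the groups only against the variation among these libraries.

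Complex III passes electrons from reduced ubiquinone to cytochrome c, and complex IV passes them from cytochrome c to oxygen, both while moving protons across the inner mitochondrial membrane. Cytochrome b holds the haems and ubiquinone sites at the core of complex III. MT-CO1 carries the haem and copper centre where oxygen is reduced, MT-CO2 carries the copper centre that takes electrons from cytochrome c, and MT-CO3 is the third core subunit and has no metal centre. The other subunits of both complexes are nuclear genes. The mitochondrial mRNAs are cut out of long transcripts that span most of the genome, mainly at the tRNAs between them, and receive short poly(A) tails inside the organelle.

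The 3′ ends of the 4 annotated transcripts are shown because they hold the stop codon or the part of it that is encoded. They are the last 30 bases, 5′ to 3′, of the GENCODE release 29 transcripts (GRCh38), with the last codon, or what is encoded of it, in capitals.
MT-CYB: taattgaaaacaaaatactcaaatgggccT
MT-CO1: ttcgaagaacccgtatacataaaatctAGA
MT-CO2: tttgaaatagggcccgtatttaccctaTAG
MT-CO3: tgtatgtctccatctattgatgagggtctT
The transcripts are 1141, 1542, 684 and 784 bases long for MT-CYB, MT-CO1, MT-CO2 and MT-CO3. MT-CO1 and MT-CO2 hold whole codons (514 and 228), whereas MT-CYB and MT-CO3 end with 1 base after 380 and 261 codons, a stop codon that the poly(A) tail is known to complete. In the annotation tRNA genes lie on both sides of MT-CYB, MT-CO1 and MT-CO2. MT-CO3 instead follows MT-ATP6 directly, with 1 shared base, and a tRNA gene follows it. All 4 are annotated on the same strand, and none is spliced.

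The table was a selection and not a full expression table. In the authors' deposited table all 1877 genes, 924 higher and 953 lower, had at least a 2-fold change and an adjusted p no larger than 0.0499, so the presence of the 4 mRNAs there is not independent evidence of a change. Values are a normalized signal on a scale that neither the labels nor the header names, and levels are therefore compared between libraries and not between genes. Summed over the list, values came to 90825 to 93975 in the control libraries and 116843 to 122079 in the knockdown libraries. Outside the mitochondrial genome the sums were 44027 to 48136 and 32487 to 33817. The depth is unknown. RNF5 itself was at 1595, 1649 and 1248 in the control and at 95.4, 81.4 and 88.4 in the knockdown libraries (log2 fold change -4.06, limma adjusted p = 1.34e-08). Of 11 plasma cell markers, SDC1 was the only listed gene, with 12.1 ± 2.66 in control and 35.5 ± 1.16 in knockdown libraries (SD, n = 3). Of 29 markers of other cell types 2 were listed, COL1A1, below 1 in every library, and CLDN4, below 4 in every library, both lower in the knockdown.

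All 4 mRNAs rose in the knockdown. Each of the 3 knockdown values lay above each of the 3 control values for all 4 genes, and the lowest knockdown value exceeded the highest control value 3.02-fold for MT-CYB, 3.15-fold for MT-CO1, 3.03-fold for MT-CO2 and 2.44-fold for MT-CO3. Of the 1290 listed genes abundant enough to test, limma called 55.7% higher in the knockdown at an adjusted p under 0.05 (97.7% in either direction). In 54.9% every knockdown library lay above every control library, and in 95.7% the groups did not overlap in one direction or the other. Because the list was selected on these libraries, the count of 4 of 4 is read only beside those shares. For the same reason the limma p-values of single genes are not independent evidence of a change. At a log2 fold change of at least 1, where all 4 also passed, the share was 35.2%.

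MT-CYB, the only complex III subunit of the mitochondrial genome, was at 820, 787 and 772 in control libraries 1, 2 and 3 and at 2479, 2853 and 2686 in knockdown libraries 1, 2 and 3. The groups were far apart, and the controls differed little among themselves. The mean rose from 793 ± 24.1 to 2673 ± 188 (SD, n = 3), a 3.37-fold increase (log2 fold change 1.75, SE 0.13, limma adjusted p = 1.52e-06). The authors' deposited table gives a log2 fold change of 1.58.

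MT-CO1, the catalytic subunit of complex IV, was at 3319, 2972 and 2537 in the control libraries and at 10457, 12702 and 11985 in the knockdown libraries. Control library 3 was the lowest and knockdown library 1 the lowest of its group, and both groups were more spread than for MT-CO3. The mean rose from 2942 ± 392 to 11715 ± 1147 (SD, n = 3), a 3.98-fold increase (log2 fold change 2.0, SE 0.14, limma adjusted p = 1.14e-06). The authors' deposited table gives 1.82.

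MT-CO2, which accepts electrons from cytochrome c, was at 2557, 2497 and 3105 in the control libraries and at 9394, 10124 and 9546 in the knockdown libraries. Here control library 3, the lowest for MT-CO1, was the highest of the controls. The mean rose from 2720 ± 335 to 9688 ± 385 (SD, n = 3), a 3.56-fold increase (log2 fold change 1.84, SE 0.13, limma adjusted p = 1.14e-06), and the authors' deposited table gives 1.69.

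MT-CO3 was at 2245, 2206 and 2353 in the control libraries and at 5730, 6211 and 5969 in the knockdown libraries. Both groups were tight, with coefficients of variation of 3.34% and 4.03%. The mean rose from 2268 ± 75.8 to 5970 ± 240 (SD, n = 3), a 2.63-fold increase and the smallest fold of the 4 (log2 fold change 1.40, SE 0.12, limma adjusted p = 2.83e-06). The authors' deposited table gives 1.24. An exact 2-sided permutation test on each of the 4 genes gave p = 0.1, the smallest value that 3 against 3 libraries allow.

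**Figure D1:**
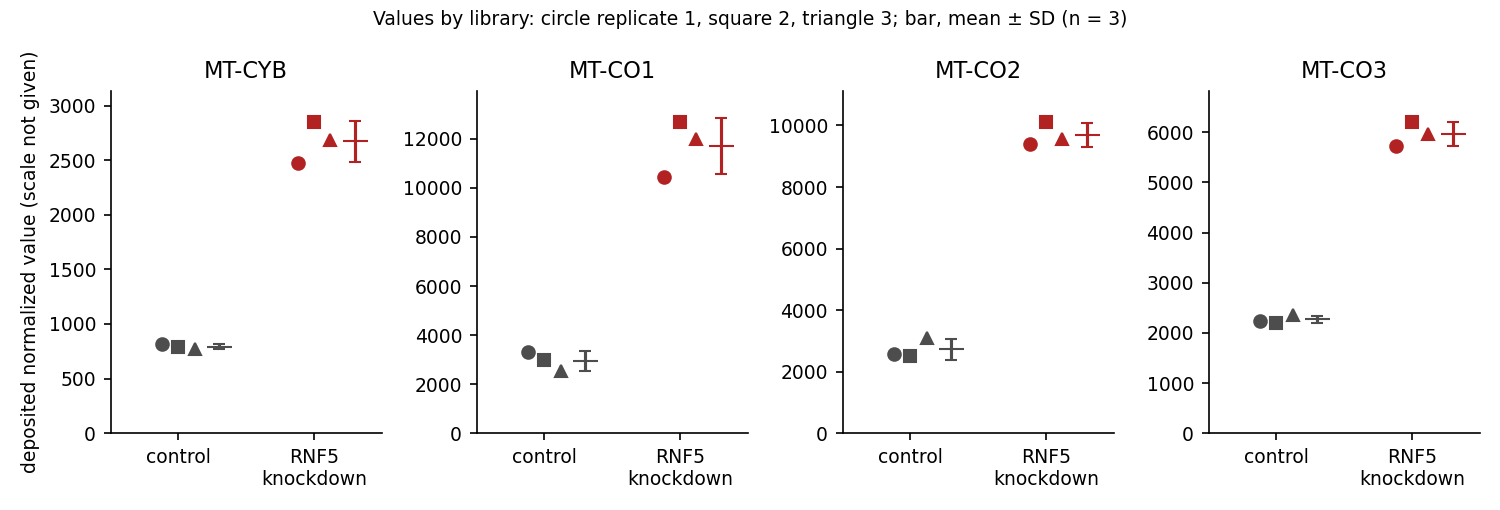
Deposited normalized values (vertical axes, scale not given, each starting at 0) of the 4 mRNAs in 3 control and 3 RNF5 knockdown libraries, with symbols for replicate number and bars for the mean ± SD. The groups do not overlap in any panel, and MT-CO1 in control library 3 (2537) is the lowest control while MT-CO2 in the same library (3105) is the highest.

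The order of the fold increases was MT-CO1, MT-CO2, MT-CYB and MT-CO3. For all 4 the authors' log2 fold changes were smaller than those of the library means. For 3 listed genes at 0 in every library, among them MT-TA, the authors' values cannot have come from the deposited ones. The median signed gap (library means minus authors) was 0.173 over 431 listed genes whose means reached 5 in both groups. For a gene that fell, a gap of this sign makes the authors' fall the larger, as for RNF5 (-4.24 by the authors against -4.08 of the library means). For the 4 mRNAs the gap was 0.173 (MT-CYB), 0.172 (MT-CO1), 0.146 (MT-CO2) and 0.152 (MT-CO3), and the order was the same in the authors' deposited table. How the values were normalized is not stated, and they are taken here as relative to the rest of each library. More of these mRNAs per cell and less of other RNA therefore cannot be told apart. With each library rescaled to an equal median over the non-mitochondrial genes tested, which lowers the log2 values of the knockdown relative to the control by 0.45 before the pseudocount is added, the 4 log2 fold changes lay between 0.95 (MT-CO3) and 1.55 (MT-CO1). With an equal sum over non-mitochondrial genes, which raises them by 0.47, they lay between 1.87 (MT-CO3) and 2.47 (MT-CO1). All 4 passed the limma test under both, where 685 (equal median) and 724 (equal sum) of the 1290 genes tested were called higher. Every gene that set these scalings had itself been selected as changed between the groups. Neither scaling therefore rests on unchanged genes, and the 2 show only how far the fold changes depend on the choice. Genes with low values shift by less on the log2(value + 1) scale.

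The ratio of 2 mRNAs within a library does not depend on any scaling of that library and shows whether they moved by unequal amounts. Its size depends on whether values were divided by length, which is not stated, so only its change between groups is read. MT-CO3 had the smallest fold, so the mean log2 ratios to it had to be higher in the knockdown. The 3 ratios to it share MT-CO3 and are not separate results. They are given first. MT-CO1 was 1.48, 1.35 and 1.08 times MT-CO3 in control libraries 1, 2 and 3 and 1.82, 2.05 and 2.01 times MT-CO3 in the knockdown libraries. The ratio of MT-CO2 to MT-CO3 went from 1.14, 1.13 and 1.32 to 1.64, 1.63 and 1.6, and that of MT-CYB to MT-CO3 from 0.365, 0.357 and 0.328 to 0.433, 0.459 and 0.450. The groups did not overlap in any of these 3 ratios. On the log2 scale the knockdown ratio exceeded the control ratio by 0.60 for MT-CO1, by 0.44 for MT-CO2 and by 0.35 for MT-CYB. The ratio of MT-CYB to MT-CO1 also separated the groups, at 0.247, 0.265 and 0.304 in the control and 0.237, 0.225 and 0.224 in the knockdown libraries, a log2 difference of -0.25. Each of these 4 pairs had p = 0.1 in the exact 2-sided permutation test, the smallest value possible, and an adjusted p of 0.15 over the 6 pairs compared. With 3 libraries a group this test cannot pass 0.05 for a difference of any size.

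The other 2 pairs overlapped between groups. MT-CO1 was 1.30, 1.19 and 0.817 times MT-CO2 in the control libraries and 1.11, 1.25 and 1.26 times in the knockdown libraries. The log2 difference was 0.16 (exact permutation test, adjusted p = 0.7), and without control library 3 it was -0.043, so its direction rested on that library. MT-CYB was 0.320, 0.315 and 0.249 times MT-CO2 in the control and 0.264, 0.282 and 0.281 times in the knockdown libraries, a log2 difference of -0.09 (exact permutation test, adjusted p = 0.6). Leaving out 1 library at a time moved that difference between -0.21 and -0.02. The control log2 ratios of these pairs had SDs of 0.35 (MT-CO1 over MT-CO2) and 0.20 (MT-CYB over MT-CO2), larger than the differences between groups.

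**Figure D2:**
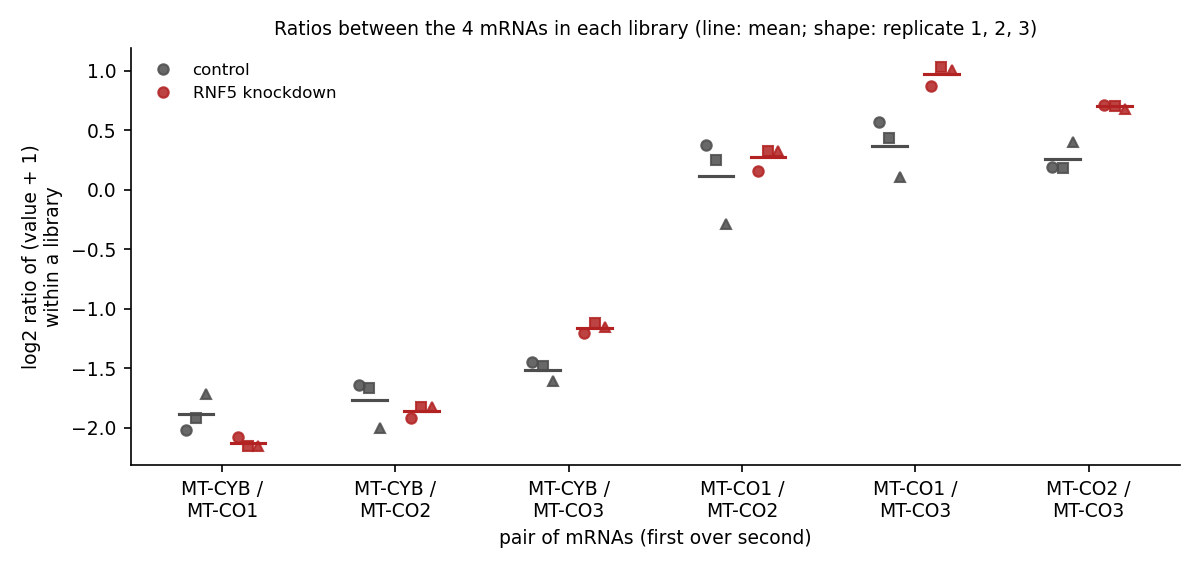
Log2 ratio of (value + 1) between 2 mRNAs within each library (vertical axis) for the 6 pairs, in control (grey) and knockdown (red) libraries, with lines for means and symbols for replicate number. The 3 ratios to MT-CO3 are higher in every knockdown library than in any control library, and MT-CO1 over MT-CO2 in control library 3 (log2 ratio -0.29) lies apart from the other controls.

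Libraries varied in a like way for some of the 4 mRNAs and not for others. In the knockdown group, library 1 was the lowest and library 2 the highest for all 4. Of the 10 listed mitochondrial mRNAs, 9 had their lowest knockdown value in library 1. In the control group the genes split: library 3 was the lowest for MT-CYB and MT-CO1 and the highest for MT-CO2 and MT-CO3. Control library 3 held 86.2% of the control mean for MT-CO1 and 114% of it for MT-CO2. The same library was also the highest control for both mitochondrial rRNAs, at 124% of the control mean for MT-RNR1 and 117% for MT-RNR2. Without it the log2 fold changes were 1.89 for MT-CO1, 1.94 for MT-CO2, 1.73 for MT-CYB and 1.42 for MT-CO3.

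The annotation places 37 genes on the mitochondrial genome, of which 13 encode proteins, and 10 of these 13 were listed. MT-TA, a tRNA gene, was also listed, at 0 in every library, although the authors' deposited table gives it a fold of 3.31 (adjusted p = 0.00648), so that fold was not made from the listed values. The 6 listed mRNAs of complex I and ATP synthase also rose, with log2 fold changes from 1.17 (MT-ATP8) to 2.05 (MT-ND5) and a median of 1.68, beside a median of 1.79 for the 4 mRNAs of complexes III and IV. Both medians stand beside 0.73 over all 1290 genes tested, which mixes genes that rose with genes that fell, and 1.13 over the 718 called higher. Those 2 reference medians include genes with low values, whose changes come out smaller on the log2(value + 1) scale. MT-RNR1 and MT-RNR2, the rRNAs that lie first on the same strand, fell by 1.55 and 1.76 on the log2 scale. Each of the 4 was then set against the mean log2 value of the other 6 mRNAs in the same library. The log2 difference between knockdown and control was 0.34 for MT-CO1, 0.09 for MT-CYB and -0.26 for MT-CO3, and in these 3 the groups did not overlap. For MT-CO2 it was 0.18, with overlapping groups. The exact permutation test gave an adjusted p of 0.133 for the first 3 (each with p = 0.1, the smallest it allows) and 0.4 for MT-CO2 over the 4 comparisons. MT-CYB had the smallest of these spreads, with SDs of 0.023 in the control and 0.019 in the knockdown.

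Along the genome the fold changes did not follow one direction. MT-CO1 and MT-CO2, which are neighbours apart from tRNAs, had log2 fold changes of 2.0 and 1.84. MT-ATP8 and MT-ATP6, which come next and share 46 annotated bases, had 1.17 and 1.67, and MT-CO3, which follows them, had 1.40. MT-CYB, the last mRNA on its strand, had 1.75, between MT-ND4 (1.43) and MT-ND5 (2.05). MT-ND6, encoded on the opposite strand between MT-ND5 and MT-CYB, had 1.93. No source used here says whether counting took strand into account, so reads of MT-ND6 and of the strand opposite it may not be separable.

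**Figure D3:**
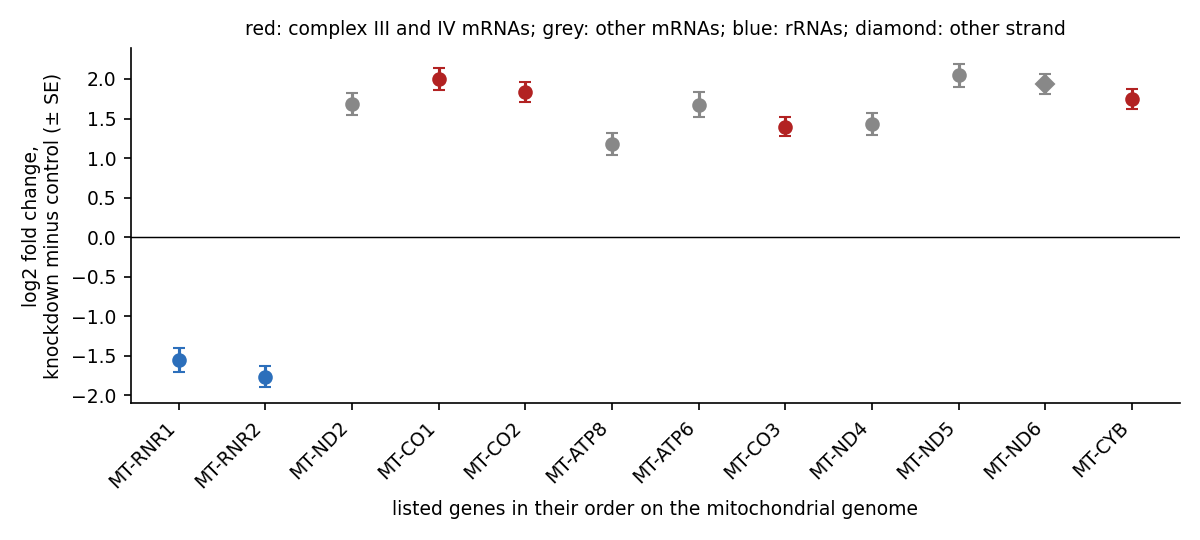
Log2 fold change (knockdown minus control, vertical axis) ± SE from limma for the 12 listed mitochondrial rRNAs and mRNAs with values, in genome order. The 4 mRNAs of complexes III and IV (red) lie between 1.40 and 2.0, among the other mRNAs (grey, 1.17 to 2.05), and the rRNAs (blue) lie below 0.

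Within the list as a whole the rises were large but not extreme. By log2 fold change MT-CO1 ranked 30th, MT-CO2 44th, MT-CYB 56th and MT-CO3 167th of the 718 genes called higher. These ranks hold for a pseudocount of 1, which understates the rise of genes with low values. At a pseudocount of 0.1 the log2 fold change of MT-CO1 was still 2.0, but genes with low values moved past it, among them LINC02348 (1.79 at a pseudocount of 1 and 2.11 at 0.1) and TPTEP1 (1.87 and 2.10).

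**Figure D4:**
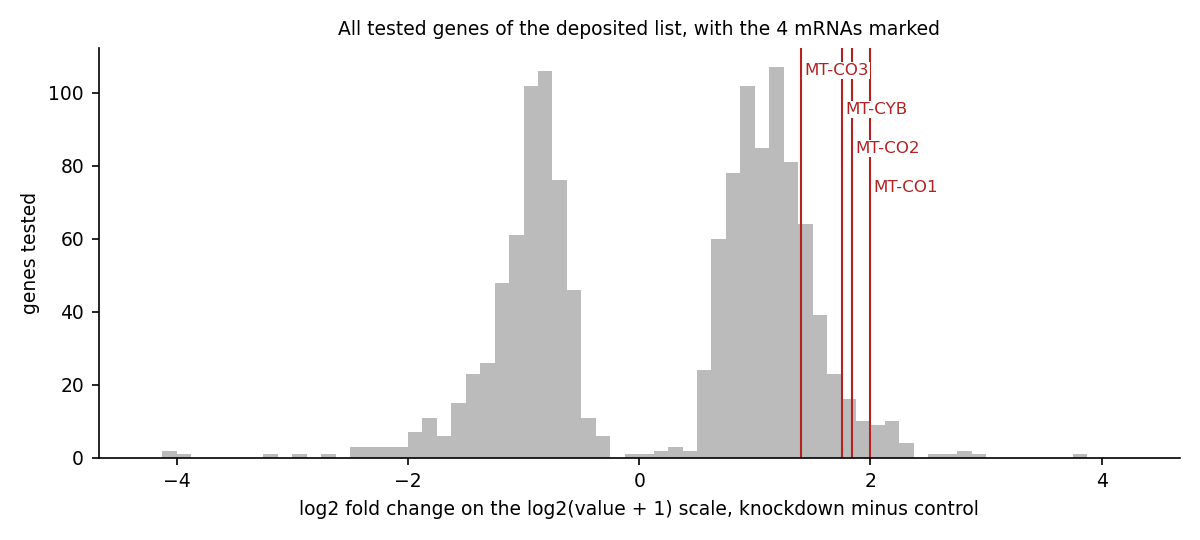
Number of tested genes (vertical axis) by log2 fold change on the log2(value + 1) scale (horizontal axis), with the 4 mRNAs as red lines. The gap around 0 is the authors' selection, and MT-CO3 (1.40) lies nearer the bulk of the higher genes than MT-CYB (1.75), MT-CO2 (1.84) and MT-CO1 (2.0).

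The nuclear genome holds copies of these genes, and reads can match both. GENCODE release 29 names 42 nuclear pseudogenes of MT-CYB, 45 of MT-CO1, 29 of MT-CO2 and 36 of MT-CO3. Of all windows of 50 bases in each mRNA, 1.19% of those of MT-CYB occur letter for letter in one of its pseudogenes, against 49.5% for MT-CO1, 29% for MT-CO2 and 30.6% for MT-CO3. Only pseudogenes of MT-CO1 were in the deposited list, MTCO1P12 and MTCO1P53. MTCO1P12 aligned to the whole of MT-CO1 with 20 mismatches and 1 gap position (98.7% identity), and MTCO1P53 aligned to positions 651 to 1350 with 49 mismatches and 1 gap position (93.0%). A stretch of 60 bases that both cover, positions 1013 to 1072 counted from the first base of MT-CO1, shows how close they are. Capitals mark bases that differ from MT-CO1, and the sequences are those of GENCODE release 29 (GRCh38), not of LP-1.
MT-CO1: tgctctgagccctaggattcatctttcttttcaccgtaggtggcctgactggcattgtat
MTCO1P12: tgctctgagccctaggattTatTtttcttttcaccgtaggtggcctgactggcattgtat
MTCO1P53: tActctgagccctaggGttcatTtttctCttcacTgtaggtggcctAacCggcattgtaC
In this stretch MTCO1P12 differs at 2 bases and MTCO1P53 at 8. Of the 50-base windows of MTCO1P12, 49.4% occur letter for letter in MT-CO1, and of those of MTCO1P53 none (0 of 650).

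Both pseudogenes rose, like MT-CO1, and at low values. MTCO1P12 was at 2.54, 1.91 and 2.37 in the control libraries and at 8.95, 10.9 and 11.2 in the knockdown libraries, a 4.55-fold increase of the mean beside 3.98-fold for MT-CO1. On the log2(value + 1) scale its log2 fold change was 1.79 (limma adjusted p = 1.37e-05), with 2.14 at a pseudocount of 0.1 and 1.08 at 5. MTCO1P53 was at 0.61, 0.45 and 0.14 and then at 2.28, 2.17 and 3.38, a 6.53-fold increase of the mean. Its log2 fold change was 1.37 (limma adjusted p = 4.47e-05), with 2.55 at a pseudocount of 0.1 and 0.49 at 5, so its size rests on the pseudocount. Among the controls, library 3 was the lowest for MTCO1P53, as for MT-CO1, but not for MTCO1P12. The part of MT-CO1 reads in the pseudogene values, and of pseudogene reads in MT-CO1, was not tested. By share of windows found in pseudogenes, the folds were 3.37 (MT-CYB, 1.19%), 3.56 (MT-CO2, 29%), 2.63 (MT-CO3, 30.6%) and 3.98 (MT-CO1, 49.5%). Whether shared reads affected these folds was not tested.

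**Figure D5:**
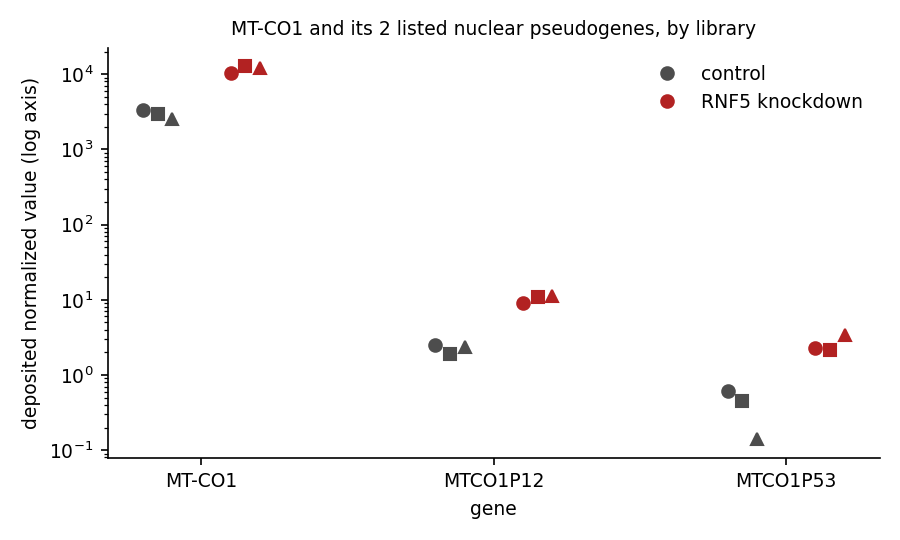
Deposited normalized values (log axis, scale not given) of MT-CO1 and its 2 listed nuclear pseudogenes in each control (grey) and knockdown (red) library, with symbols for replicate number. All 3 are higher in every knockdown library, and both pseudogenes stay below 12 where MT-CO1 reaches 12702.

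The genes whose pattern over the 6 libraries was closest to the average of the 4 mRNAs were found by the root-mean-square difference of centred log2(value + 1), a scale on which genes with low values move less. Inside the mitochondrial genome these were MT-ND2 (0.087), MT-ND6 (0.099) and MT-ATP6 (0.15). Among 523 named genes outside it with a mean of at least 5, the closest were the non-coding RNA LINC02348 (0.077), MTCO1P12 (0.089), the non-coding RNA WAKMAR2 (0.11), the pseudogene TPTEP1 (0.12) and the zinc finger gene ZNF248 (0.12). The 4 mRNAs lay 0.022 (MT-CYB), 0.11 (MT-CO2), 0.17 (MT-CO1) and 0.18 (MT-CO3) from their own average. Each of the 4 enters that average, so these distances are not like those of the other genes. MT-CYB was the closest of the 4 to it.

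Few nuclear partners of these subunits were listed, and those few went the other way. In 8 lists with 117 distinct nuclear genes, 4 genes were listed and all 4 fell, where 42.0% of all tested genes were called lower. Of 29 assembly factors of complex IV, 3 were listed, and each fell (median log2 fold change -0.97). COX17, which delivers copper for the metal centres of MT-CO1 and MT-CO2, was at 217, 229 and 450 in the control and at 158, 133 and 139 in the knockdown libraries. Its groups did not overlap, and control library 3 stood apart. The log2 fold change was -0.97 by limma (adjusted p = 0.00242), and without that library it was -0.64 (adjusted p = 0.000486). COA6, an assembly factor for the copper centre of MT-CO2, was at 30.3, 25.7 and 48.0 and then at 17.1, 16.5 and 14.8 (log2 fold change -1.01, limma adjusted p = 0.00116). COA8, another assembly factor, was at 44.5, 37.8 and 52.6 and then at 33.9, 22.6 and 21.6 (log2 fold change -0.78, limma adjusted p = 0.00368). With libraries scaled to an equal sum over non-mitochondrial genes, COX17 (-0.50, limma adjusted p = 0.0983) and COA8 (-0.33, limma adjusted p = 0.178) no longer passed.

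Of 10 nuclear subunits of complex III, UQCRHL was listed and fell, from 2.20 ± 0.979 to 0.553 ± 0.119 (SD, n = 3). UQCRHL closely resembles the subunit gene UQCRH, and reads of the pair may not be separable. None of the 18 nuclear subunits of complex IV was listed, nor any of 9 assembly factors of complex III, cytochrome c (CYCS), 15 genes of mitochondrial transcription and replication, 25 of mitochondrial RNA processing and decay and 11 translation factors. The last include TACO1, an activator of MT-CO1 translation, which is also an assembly factor of complex IV. Genes outside the deposited list have no values here, and their levels were not analysed.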

How the data were processed

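The deposited table holds 1877 genes in 6 libraries. The authors deposited 1 normalized signal per gene and library, with 2 decimals and no stated scale. Of these values 4.19% were whole, and depth is unknown. Per the file headers, further columns hold the authors' fold ratio of knockdown over control, its log2 value, a p-value and an adjusted p-value from an unnamed test. The submitters' processing notes name Bowtie 0.12.2 and hg19 without a step. Read length, counting and normalization were not given.

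Here limma 3.58.1 (R 4.3.3) with a mean-variance trend and the group as the only term was fitted to log2(value + 1) of the 1290 genes that reached 1 in 3 or more of the 6 libraries, with Benjamini-Hochberg adjustment over all of them. The 4 genes passed this filter, and the fit was tested on simulated data. Ratios had exact permutation tests. Transcripts came from GENCODE 29 (GRCh38) and were aligned with Biopython 1.88. No coordinates are given, as that build differs from hg19. The members and lists were chosen with earlier results of these data known. Named were the 4 genes, other listed mitochondrial genes, listed pseudogenes of the 4, listed genes of the partner lists, RNF5, and the 5 non-mitochondrial genes and 3 mitochondrial genes closest in pattern. The 3 mitochondrial ones were added after values were seen. Alternatives changed the pseudocount, filter, scaling, trend, replicate block or left out a library.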

Additional observations from a re-analysis of the deposited data

How the results depend on the processing

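All 4 mRNAs stayed higher and past the threshold in limma under each of 14 alternatives, which left 4 of 4 called throughout. Most genes tested were called in each setting too, so this count is read only beside theirs. Without the filter 905 of 1877 genes were called higher and 882 lower. With an equal sum over non-mitochondrial genes 724 of 1290 were called higher and 373 lower. Log2 fold changes ranged from 1.30 to 2.22 for MT-CYB, from 1.55 to 2.47 for MT-CO1, from 1.39 to 2.31 for MT-CO2 and from 0.95 to 1.87 for MT-CO3, with both ends set by the 2 scalings in each case. Leaving out 1 library gave 1.70 to 1.80, 1.89 to 2.09, 1.78 to 1.94 and 1.37 to 1.42 in the same order. Ratios between the mRNAs kept their direction under 8 alternatives each, except MT-CO1 against MT-CO2 without control library 3 (-0.043). The cause was not tested. Leaving out 1 library gave -0.043 to 0.29 for that pair. Among the other genes named, 3 calls were lost, those of COX17, COA8 and CLDN4 (-0.32, limma adjusted p = 0.0953), all with an equal sum over non-mitochondrial genes. Under a filter of at least 5, MTCO1P53, UQCRHL and CLDN4 gave no value.

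Same-numbered libraries did not vary together (correlations of deviations -0.16, -0.07 and -0.08 over 1290 genes, none the highest for its library). The values thus gave no sign of pairing by number, which does not exclude that such libraries were prepared together. With the replicate block, limma called 721 genes higher and 551 lower in place of 718 and 542. The block cannot change the log2 fold changes of the 4, because each number occurs once in each group. Nor can another filter or a fit without the trend, so these settings test only the p-values. With 3 libraries a group, exact tests of ratios cannot go below p = 0.1, or below 0.2 with 1 library left out. Unknown depth leaves the counting error of each value unmeasured.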
